A study of Rattus norvegicus with 4 samples.

Results

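The genes described here build and anchor the actin cytoskeleton: tropomyosins, filament crosslinkers, non-muscle myosin, LIM domain proteins and the plaque of the focal adhesion, with the intermediate filament vimentin. They were chosen by name, 44 in all, with earlier results of these data known, so the set is not independent of the values. Every probe set annotated to exactly 1 of these symbols was taken. This gave 86 of 31099 probe sets, for 42 genes of 14217; 23 of these genes had 1 probe set and 19 had more. Actb and Cfl1 have no value here, because the probe sets that name them also name other genes; 4 probe sets with several symbols were left out for that reason.

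Smooth muscle cells from the aorta of Sprague-Dawley rats were grown to confluence with serum for 3 days and held without serum for 3 days. A 24 h treatment followed, with 2.5 ng/mL of the inflammatory cytokine interleukin-1b (IL-1b) or 30 ng/mL of PDGF-DD, a growth factor that acts mainly on PDGF receptor beta. The vehicle of IL-1b was 10 mM acetic acid with 0.1% albumin (BSA), and that of PDGF-DD was BSA alone at 0.01%; cells given only these are called the IL-1b control and the PDGF-DD control. The 4 conditions had 1 array of the Affymetrix type each, so no value has a replicate, no test was possible, no p-value is given, and the number of arrays limits the precision. A difference between arrays therefore holds the treatment together with anything else that differed between those cultures and arrays. In such bulk RNA, fewer cells with a transcript and less of it in each cell cannot be told apart.

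Values are probe set intensities on a linear scale, rescaled so that the 4 arrays share a mean. Intensities under a floor of 28.1, the 40th percentile of all probe sets, were treated as not measurable. A gene is represented by its brightest probe set, by the mean of log2 intensity, and a difference is called where it reaches 2-fold. Intensities of different probe sets are not comparable, so each gene is compared only with itself across arrays. Of the 42 genes, 40 were above the floor on every array; Palldl1 and Ppp1r12b were not. Of 7 smooth muscle markers, Acta2, Myh11, Tagln, Cnn1, Smtn and Lmod1 were above the floor on every array and Des was under it on 3 of 4; the 7 had summed intensities of 27111 on the IL-1b control, 8453 with IL-1b, 19890 on the PDGF-DD control and 4532 with PDGF-DD. Of 6 endothelial markers with a probe set, 5 (Pecam1, Kdr, Tie1, Vwf and Emcn) were at the floor on all arrays and the sixth, Tek, summed with them to at most 62.3. The leukocyte markers Ptprc, Cd68, Csf1r, Itgam and Cd3e were also at the floor throughout, but Lyz2 and Cd74 brought the sum of 7 leukocyte markers to 4717 with IL-1b, against 166 with its vehicle, 631 with the PDGF-DD control and 132 with PDGF-DD. The 5 fibroblast markers summed to 2300.0, 6563, 1311 and 559 on the IL-1b control, IL-1b, PDGF-DD control and PDGF-DD arrays. Most of each sum was Lum, at 2067, 6041, 1022 and 372 in that order. With IL-1b, Pdgfra was also higher than on its control (84.0 to 377) and Pi16 was nearly level (56.6 to 59.1). Dcn was under the floor on 2 arrays and Dpp4 on 3. The part of other cell types in the differences below was not tested.

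In smooth muscle cells, actin filaments run in bundles called stress fibres, which tropomyosins stabilise, crosslinkers hold together and myosin contracts. The fibres end at focal adhesions, plaques of vinculin, talin, paxillin and zyxin that tie them to integrins and so to the matrix. Many of these genes are targets of serum response factor (SRF), whose coactivators of the myocardin family respond to the state of the actin pool; SRF binds a DNA element called the CArG box. Part of the set is expressed mainly in muscle and part in nearly every cell.

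Most of the genes were lower with either factor. With IL-1b, 11 of 40 measured genes were at least 2-fold lower than with its vehicle, where 5.42% of all 10678 genes measured were, and 0 were at least 2-fold higher, where 6.15% of all genes were. With PDGF-DD, 7 of 42 were at least 2-fold lower, beside 4.67% of all genes, and 1 was higher, beside 4.24%. The median log2 ratio of the measured genes was -0.70 with IL-1b and -0.54 with PDGF-DD, while that of all genes was 0.02 and 0.01. Below 0 were 35 of 40 genes with IL-1b, beside 47.5% of all genes, and 36 of 42 with PDGF-DD, beside 49% of all genes. Of the 40 genes measured under both factors, 32 were below 0 with both, and 2, Tpm3 and Lasp1, were above 0 with both. The share of all genes on the same side of 0 with both was not counted. Most of the single differences were under 2-fold: at 1.5-fold, 23 genes were lower with IL-1b (11.8% of all genes) and 20 with PDGF-DD (12.4% of all genes).

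The count was also taken among bright genes, since most of these transcripts are abundant. Among the 31 genes with a mean intensity of at least 1400.0, a limit set after the data were seen, 8 were at least 2-fold lower with IL-1b, beside 4.06% of all 1083 genes above that limit, and 0 were higher, beside 4.62%. With PDGF-DD 4 were lower, beside 5.72%, and 0 were higher, beside 0.462%. Between the controls 1 was lower, beside 1.39%, and 1 higher, beside 4.71%.

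**Figure D1:**
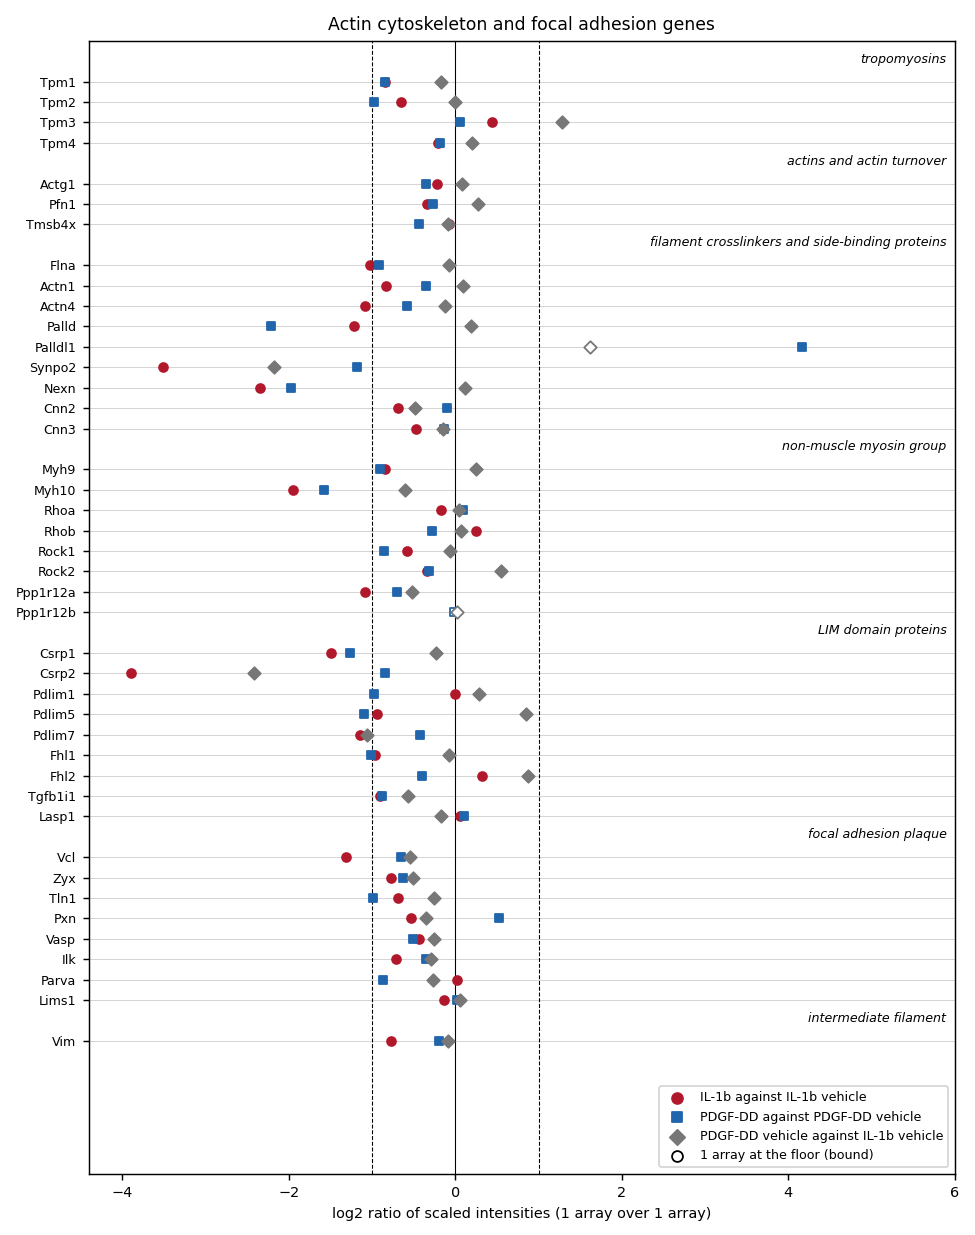
Log2 ratio of the scaled intensities (horizontal axis) for each of the 42 genes (rows, grouped by role), for IL-1b over its vehicle (circles), PDGF-DD over its vehicle (squares) and the PDGF-DD control over the IL-1b control (diamonds); dashed lines mark 2-fold, open symbols are bounds with 1 array at the floor. Circles and squares lie mostly left of 0, with medians of -0.70 and -0.54, and Palldl1 stands alone at 4.17 with PDGF-DD.

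The controls received no factor, but their vehicles differed, so a difference between them holds vehicle, culture and array together. Neither control was repeated, so the spread between like cultures cannot be read from them. On the PDGF-DD control 3 of 42 genes were at least 2-fold lower than on the IL-1b control, Csrp2, Synpo2 and Pdlim7, where 4.67% of 10388 genes were, and 2 were higher, Tpm3 and Palldl1, where 5.8% were. The median log2 ratio of the genes was -0.08, and that of all genes -0.05. The size of a factor's difference turned on the control it was set against, for these 5 genes and for others. Flna, Actn4, Ppp1r12a, Pdlim7 and Vcl, at least 2-fold lower with IL-1b against its own vehicle, were under 2-fold against the PDGF-DD control. Of these, Pdlim7 alone was 2-fold apart between the controls. Tpm1, Ppp1r12a, Tgfb1i1, Vcl, Zyx, Tln1 and Parva, not apart between the controls, were at least 2-fold lower with PDGF-DD only against the IL-1b control. Against the other control, 9 of 42 genes were at least 2-fold lower with IL-1b, where 4.97% of all genes were, and 0 were higher, where 5.44% were. With PDGF-DD 15 of 41 were lower against the other control, where 10.3% of all genes were, and 2 were higher, where 9.65% were.

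Hybridization spike-in controls, bacterial and phage transcripts added with the hybridization mix, are set beside the PDGF-DD values. They do not report on RNA input or on the steps before hybridization. The 7 spike-in probe sets for bioB, bioD and cre had log2 ratios of -0.54 to -0.34 (median -0.50) on the PDGF-DD array against its vehicle, and of -0.26 to 0.26 (median 0.01) on the IL-1b array against its own. The 2 probe sets for bioC had -0.50 and -0.39 with PDGF-DD and -0.36 and -0.16 with IL-1b, and between the controls they stood at -1.31 and -1.30, where the 7 others ran from -0.08 to 0.31. The PDGF-DD median of the genes, -0.54, is of that size, although the median of all genes was 0.01. RNA quality can be read from the beta-actin probe sets, whose 3' over 5' signal was 1.58 for the IL-1b control, 2.05 for IL-1b, 1.26 for the PDGF-DD control and 1.37 for PDGF-DD. Their part in the results was not tested.

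Against both controls, 6 of 40 genes were at least 2-fold lower with IL-1b, where 1.82% of all genes were, and 0 were higher, where 3.16% of all genes were. With PDGF-DD, 6 of 41 were lower against both vehicles, where 3.22% of all genes were, and 1 was higher, where 3.44% were. Palld, Synpo2, Nexn, Myh10 and Csrp1 were lower in both cases, with Csrp2 added for IL-1b and Fhl1 for PDGF-DD; Palldl1 was the gene higher with PDGF-DD. Counting each factor against its own vehicle, those same 5 genes of 40 were lower with both factors, where 1.68% of all genes were. For Synpo2 both results rest on its brightest probe set. Its other probe sets above the floor on every array had log2 ratios of -0.96 and -0.45 for IL-1b over the PDGF-DD control. For PDGF-DD over its vehicle they had -0.28 and 0.04.

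**Figure D2:**
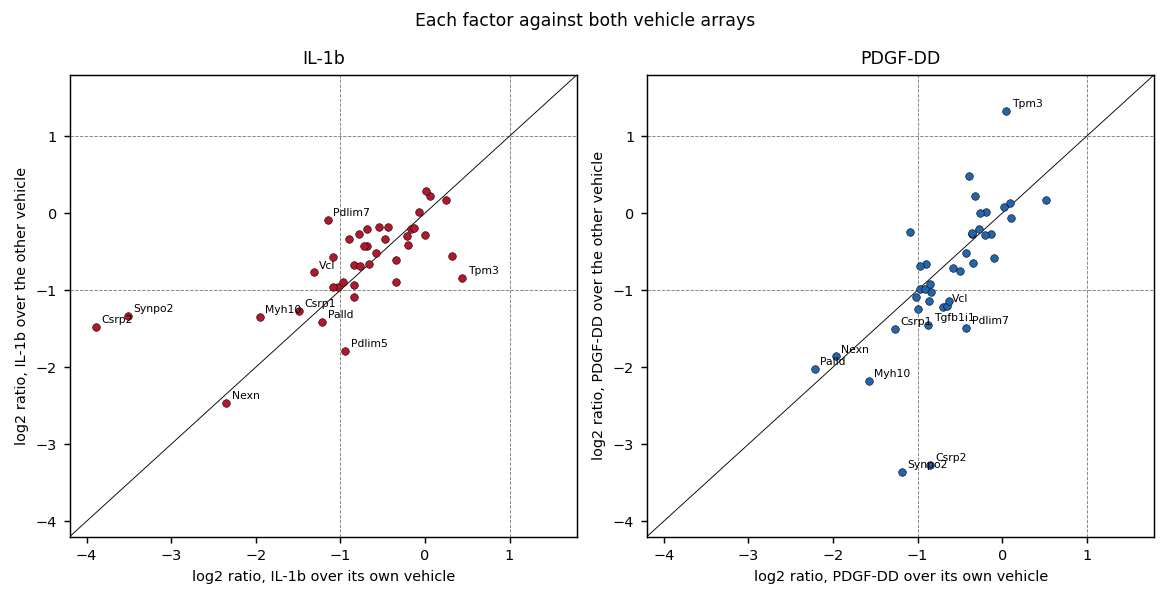
Each point is 1 gene; the horizontal axis is the log2 ratio of a factor over its own vehicle and the vertical axis the log2 ratio over the other vehicle, for IL-1b (left) and PDGF-DD (right), with dashed lines at 2-fold and the line of equality. The axes share the treated array; Palldl1 lies outside the right panel. Nexn, Palld, Myh10 and Csrp1 lie beyond 2-fold on both axes in both panels, and Csrp2 and Synpo2 are farthest from the line.

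The filament crosslinkers and side-binding proteins were among the genes with large differences under both factors. With IL-1b, 5 of 8 measured were at least 2-fold lower (median -1.06), and with PDGF-DD 3 of 9 were lower and 1 higher (median -0.58). Of all genes, 5.42% were lower with IL-1b and 4.67% with PDGF-DD, and 4.24% were higher with PDGF-DD. Nexn, which encodes nexilin, an actin-binding protein of muscle, had an intensity of 1532 with the IL-1b control and 301 with IL-1b, and of 1656 with the PDGF-DD control and 423 with PDGF-DD. Both controls were high and nearly equal and both treated arrays low. It was 5.10-fold lower with IL-1b and 3.92-fold lower with PDGF-DD, and its other probe set gave 4.09-fold and 5.26-fold.

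Palld encodes palladin, a scaffold of stress fibres and adhesions that binds alpha-actinin. Its intensity was 3234 with the IL-1b control, 1392 with IL-1b, 3697 with the PDGF-DD control and 797 with PDGF-DD. It was lowest with PDGF-DD, 4.64-fold under its vehicle, and 2.32-fold lower with IL-1b.

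Palldl1, annotated as palladin-like 1, went the other way. It had an intensity of 1552 with PDGF-DD and 86.3 with the PDGF-DD control, while both the IL-1b control (10.9) and IL-1b (18.3) were under the floor. The log2 ratio of 4.17 ranked 1 of all 10141 genes measured in that comparison, and against the IL-1b control the gene was at least 55.3-fold higher. The PDGF-DD control was itself at least 3.07-fold above the IL-1b control. Each of these genes has 1 probe set, so neither value has a check within the array. The name Palldl1 rests on the platform annotation, and which transcript its probe set detects was not checked. In the RefSeq annotation of the GRCr8 assembly, Palldl1 and Palld lie near each other on chromosome 16, and Ddx60, chosen after its values were seen because it overlaps Palldl1 there, was under the floor on all 4 arrays.

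Synpo2 encodes synaptopodin-2, an actin-bundling protein of muscle. Its intensity was 1615 with the IL-1b control, 141 with IL-1b, 357 with the PDGF-DD control and 157 with PDGF-DD. Only the IL-1b control was high: the gene was 11.4-fold lower with IL-1b, 2.27-fold lower with PDGF-DD, and 4.53-fold lower on the PDGF-DD control than on the IL-1b control, while the treated arrays differed 1.11-fold. Its 2 other probe sets above the floor gave smaller differences, with log2 ratios of -1.62 and -1.59 for IL-1b and of -0.28 and 0.04 for PDGF-DD, and a further one, above the floor only in the IL-1b control, gives no more than a bound; by the median of its probe sets it was not 2-fold lower with PDGF-DD.

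Widely expressed crosslinkers lay near the 2-fold line. Actn4, an alpha-actinin of non-muscle cells, was 2.12-fold lower with IL-1b (3366 to 1584) and at a log2 ratio of -0.58 with PDGF-DD (3091 to 2062). Flna, filamin A, which joins filaments into networks, was 2.04-fold lower with IL-1b (8838 to 4337) and 1.88-fold with PDGF-DD (8422 to 4470.0). Flna was the gene just inside the 2-fold limit with IL-1b, at a log2 ratio of -1.03, and with quantile normalization it was -0.90; against the PDGF-DD control Flna and Actn4 were both at -0.96.

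Actn1, the other non-muscle alpha-actinin, was 1.79-fold lower with IL-1b and 1.28-fold with PDGF-DD, and its other probe set gave 2.49-fold and 1.62-fold. The calponin family members Cnn2 and Cnn3, which bind along filaments, had log2 ratios of -0.69 and -0.48 with IL-1b and of -0.09 and -0.13 with PDGF-DD. Both were within 2-fold on every pair of arrays compared here.

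**Figure D3:**
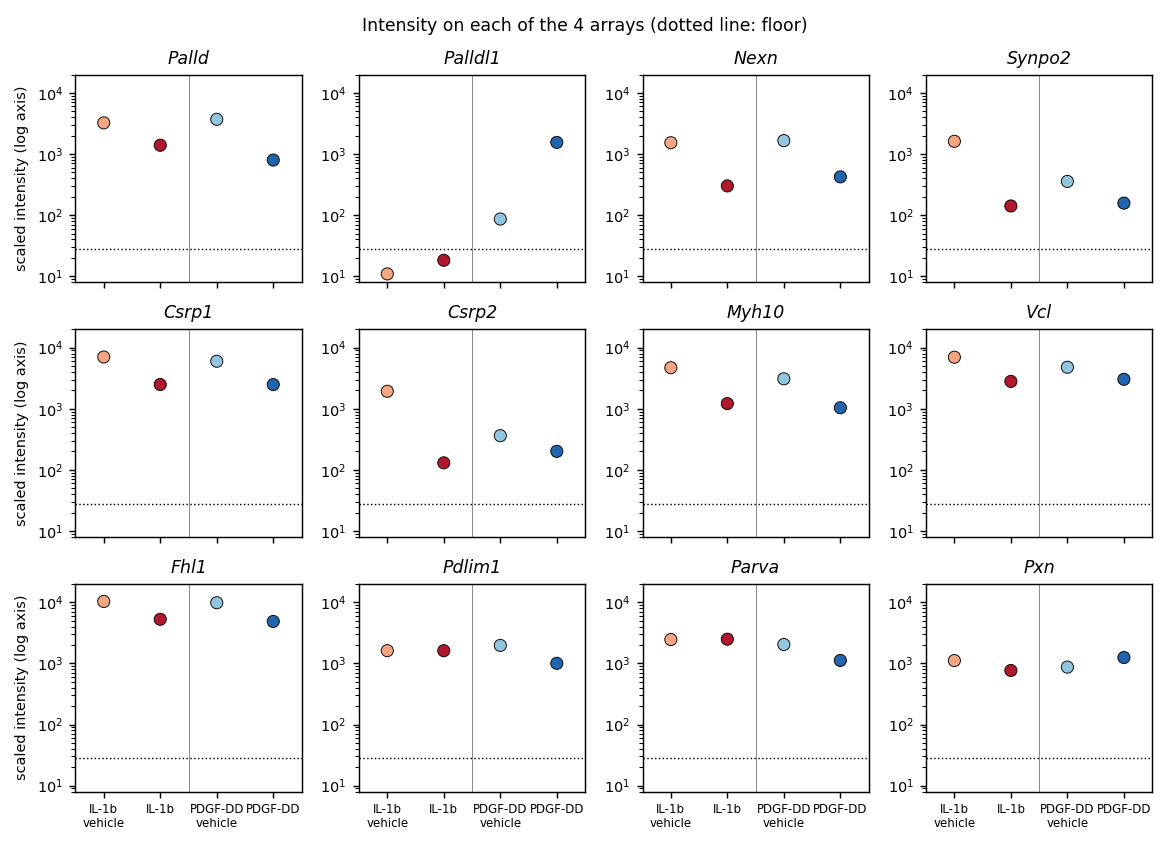
Scaled intensity (vertical log axis) of 12 genes on the IL-1b control, IL-1b, PDGF-DD control and PDGF-DD arrays, 1 point per array, with a dotted line at the floor of 28.1. Nexn, Csrp1 and Myh10 are low on both treated arrays, Palldl1 is high on the PDGF-DD array (1552), and Synpo2 and Csrp2 are high on the IL-1b control (1615 and 1930).

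Among the LIM domain proteins, which carry zinc-binding interaction domains and sit on stress fibres and adhesions, 3 of 9 were at least 2-fold lower with IL-1b (median -0.94) and 3 of 9 with PDGF-DD (median -0.87). The shares of all genes lower were 5.42% and 4.67%. Csrp1, a cysteine-rich protein that binds alpha-actinin and zyxin, had an intensity of 7019 with the IL-1b control, 2490.1 with IL-1b, 5985 with the PDGF-DD control and 2480.3 with PDGF-DD. It was 2.82-fold lower with IL-1b and 2.41-fold lower with PDGF-DD, and the treated arrays were 1.00-fold apart. Csrp2, its smooth muscle relative, had 1930 with the IL-1b control, 130.2 with IL-1b, 362 with the PDGF-DD control and 201 with PDGF-DD. As with Synpo2, the IL-1b control stood above the other 3: Csrp2 was 14.8-fold lower with IL-1b, ranking 11 from the lowest of 10678 genes, but had a log2 ratio of -0.85 with PDGF-DD and was 5.33-fold lower on the PDGF-DD control than on the IL-1b control. Against the other vehicle the values changed places, at 2.78-fold lower with IL-1b and 9.61-fold lower with PDGF-DD.

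Fhl1, a four-and-a-half-LIM protein of muscle, had intensities of 10329 in the IL-1b control, 5277 with IL-1b, 9831 in the PDGF-DD control and 4862 with PDGF-DD. These were 1.96-fold and 2.02-fold apart, on either side of the limit. Its other 2 probe sets gave larger differences, 5.02-fold and 5.33-fold with IL-1b and 3.55-fold and 4.36-fold with PDGF-DD. Fhl2, a related cofactor, was 1.25-fold higher with IL-1b and 1.32-fold lower with PDGF-DD.

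The enigma family joins a PDZ domain to LIM domains. Pdlim7 was 2.22-fold lower with IL-1b (3629 to 1637), yet the PDGF-DD control, at 1740, was 2.09-fold under the IL-1b control as well, and PDGF-DD had 1295. The other Pdlim7 probe set did not reach 2-fold. It was 1.72-fold lower with IL-1b, and 1.22-fold lower on the PDGF-DD control than on the IL-1b control. Pdlim5 was 1.92-fold lower with IL-1b (737 to 384) and 2.14-fold lower with PDGF-DD (1328 to 622), and against the IL-1b control the PDGF-DD value was 1.19-fold lower. Pdlim1 differed between the factors: it had 1616 and 1614 with the IL-1b control and IL-1b, and 1971 and 1003 with the PDGF-DD control and PDGF-DD. Tgfb1i1, an adhesion protein also called Hic-5, was 1.87-fold lower with IL-1b and 1.83-fold lower with PDGF-DD, and Lasp1 was within 1.04-fold and 1.07-fold. The other Lasp1 probe set was 1.63-fold higher with IL-1b and 1.21-fold lower with PDGF-DD.

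Myh10, the heavy chain of non-muscle myosin IIB, had an intensity of 4689 with the IL-1b control, 1214 with IL-1b, 3086 with the PDGF-DD control and 1036 with PDGF-DD. Both treated arrays were below both controls, 3.86-fold and 2.98-fold in the paired comparisons. Myh9, the heavy chain of non-muscle myosin IIA, was 1.79-fold and 1.87-fold lower.

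Ppp1r12a, the subunit that targets myosin phosphatase to myosin, was 2.13-fold lower with IL-1b (2748 to 1291) and 1.63-fold lower with PDGF-DD (1917 to 1178). Its 4 probe sets gave log2 ratios of -1.40 to -0.95 with IL-1b and of -0.92 to -0.68 with PDGF-DD; against the PDGF-DD control the brightest was -0.57 with IL-1b. Rhoa, the small GTPase that starts stress fibre assembly, had log2 ratios of -0.17 and 0.09 with IL-1b and PDGF-DD, and its relative Rhob 0.25 and -0.28. The kinases they act through, Rock1 and Rock2, were 1.49-fold and 1.27-fold lower with IL-1b and 1.81-fold and 1.25-fold lower with PDGF-DD. The 4 probe sets of Rock2 did not share a direction with IL-1b, at log2 ratios of -0.63 to 0.60, and had -0.36 to -0.14 with PDGF-DD. On the PDGF-DD control they stood above the IL-1b control, at 0.55 to 2.49. Ppp1r12b was at or beside the floor on every array, at 28.5 at most, and gives no fold.

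Of the 8 focal adhesion plaque genes, 1 was at least 2-fold lower with IL-1b (median -0.61) and 0 with PDGF-DD (median -0.57). Of all genes 5.42% and 4.67% were lower, and a list of 8 is too small to tell these counts from those shares. Vcl, vinculin, which links talin to actin under tension, had an intensity of 6966 with the IL-1b control, 2800.1 with IL-1b, 4770.1 with the PDGF-DD control and 3032 with PDGF-DD. It was 2.49-fold lower with IL-1b and 1.57-fold with PDGF-DD; against the PDGF-DD control IL-1b was 1.70-fold lower and against the IL-1b control PDGF-DD was 2.30-fold lower. Its other probe sets gave 2.55-fold and 5.44-fold with IL-1b and 1.23-fold and 2.12-fold with PDGF-DD.

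Tln1, talin, which activates integrins, was just outside the limit with PDGF-DD at a log2 ratio of -0.99 (1671 to 841), and at -0.68 with IL-1b. Zyx, zyxin, which gathers at strained fibres, was 1.71-fold and 1.54-fold lower with IL-1b and PDGF-DD, and Vasp, a filament elongation factor, 1.35-fold and 1.42-fold. Ilk, Parva and Lims1 encode the 3 partners of the complex that couples integrins to actin. Ilk was 1.64-fold lower with IL-1b and 1.27-fold with PDGF-DD, and Lims1 was 1.10-fold lower and 1.02-fold higher.

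Parva and Pxn set the factors apart, within 2-fold of their own vehicles. Parva had 2458 and 2488 with the IL-1b control and IL-1b, and 2040 and 1118 with the PDGF-DD control and PDGF-DD, a 1.82-fold difference; its other probe set gave log2 ratios of -0.10 and -1.03. Pxn, paxillin, an adaptor that recruits kinases, was 1.45-fold lower with IL-1b (1113 to 766) and 1.44-fold higher with PDGF-DD (869 to 1248). For Parva the treated arrays were 2.23-fold apart and for Pxn 1.63-fold.

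The tropomyosins lie along the filament and set which myosins and severing factors reach it. By the brightest probe sets 0 of 4 were called under either factor. Of all genes, 5.42% were lower and 6.15% higher with IL-1b, and 4.67% lower and 4.24% higher with PDGF-DD. Tpm1 was 1.79-fold lower with both (8527 to 4752 and 7546 to 4208), and Tpm2 1.58-fold lower with IL-1b and 1.97-fold with PDGF-DD. Both are the main forms of smooth muscle.

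Tpm1 had 7 probe sets, and 5 of them were at least 2-fold lower with IL-1b, down to a log2 ratio of -2.26, and 3 of 6 measured with PDGF-DD, down to -1.81. One of these probe sets had 6278 and 1982 with the IL-1b control and IL-1b and 4923 and 2311 with the PDGF-DD control and PDGF-DD. Tropomyosin transcripts are spliced into many forms and the genes resemble each other, and which forms these probe sets detect was not tested.

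Tpm3, a tropomyosin of non-muscle and slow muscle cells, and Tpm4, a non-muscle form, did not share this pattern. Tpm3 had 1853 and 2518 with the IL-1b control and IL-1b and 4501 and 4662 with the PDGF-DD control and PDGF-DD. The PDGF-DD pair was high and the IL-1b pair low, 2.43-fold apart between the controls, and 7 of 12 probe sets were at least 2-fold apart in this direction. Tpm4 was 1.15-fold and 1.14-fold lower with IL-1b and PDGF-DD.

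**Figure D4:**
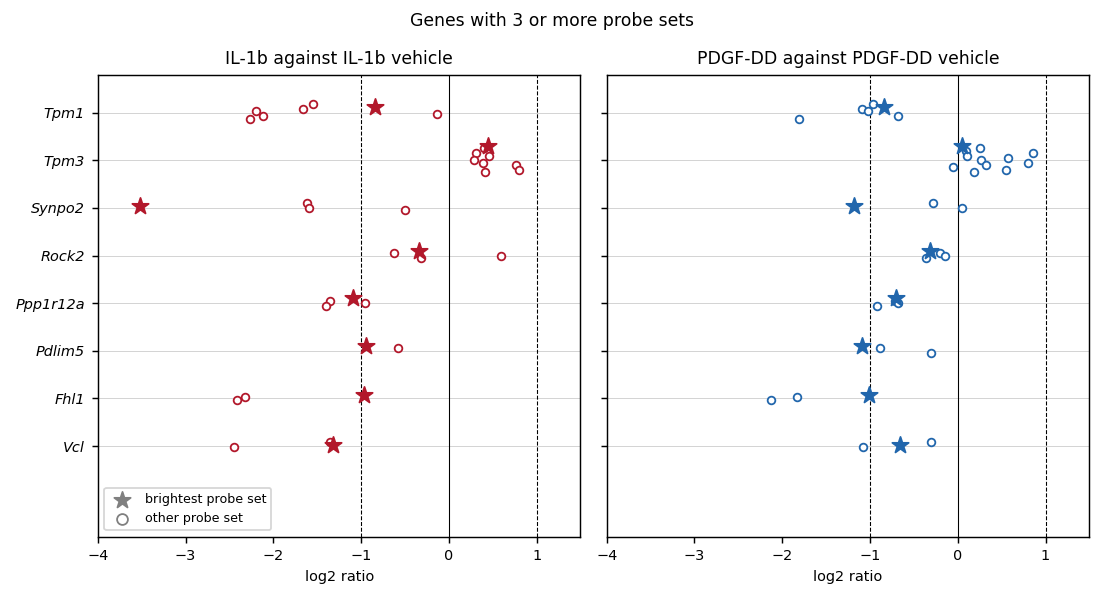
Log2 ratio (horizontal axis) of each measured probe set of the 8 genes with 3 or more, for IL-1b (left) and PDGF-DD (right) over their vehicles; stars are the brightest probe set and circles the others, and dashed lines mark 2-fold. For Tpm1, Fhl1 and Vcl other probe sets reach larger differences than the brightest, and for Synpo2 smaller ones.

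Across the 19 genes with another measured probe set, 4 that were not called with IL-1b by the brightest one, Tpm1, Tpm2, Actn1 and Fhl1, had another at least 2-fold lower, and so had Tpm1, Vcl and Parva with PDGF-DD. Of 5 such genes called with IL-1b, 1 had no other probe set at least 2-fold lower, and of 4 called with PDGF-DD, 2 had none. Counted by probe set, 27 of 79 measured were lower with IL-1b (5.87% of all probe sets) and 15 of 83 with PDGF-DD (4.75% of all probe sets). At least 2-fold higher were 0 with IL-1b, beside 5.38% of all probe sets, and 1, Palldl1, with PDGF-DD, beside 3.64%. Between the controls 4 of 85 were lower, beside 4.73%, and 10 higher, beside 5.56%; probe sets of a gene share its transcript and are not independent.

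Those genes of the actin pool that have a value stayed within 2-fold of their vehicles. Actg1 (cytoplasmic gamma-actin), Pfn1 (profilin, which delivers actin monomers) and Tmsb4x (thymosin beta-4, which stores them) had log2 ratios of -0.34 to -0.07 with IL-1b and of -0.43 to -0.26 with PDGF-DD (Actg1 -0.35, Tmsb4x -0.43 and Pfn1 -0.26), where the spike-in controls for bioB, bioD and cre ran from -0.54 to -0.34. Beta-actin is seen here only through the control probe sets used for RNA quality. Their 3', middle and 5' log2 ratios were -0.29, -0.38 and -0.67 with IL-1b, and -0.42, -0.51 and -0.55 with PDGF-DD. Vim, vimentin, was 1.70-fold lower with IL-1b (10340.4 to 6076) and 1.15-fold lower with PDGF-DD (9767 to 8506).

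Set directly against each other, 39 of 41 measured genes were within 2-fold between PDGF-DD and IL-1b by the brightest probe sets. Palldl1 was higher with PDGF-DD, at least 55.3-fold, where 7.09% of all genes were at least 2-fold higher, and Parva was lower, where 8.68% of all genes were. By probe set, 14 of 81 were at least 2-fold higher with PDGF-DD than with IL-1b, beside 7.48% of all probe sets, and 1 was lower, beside 8.04%. The 14 were 7 of 12 for Tpm3 (up to a log2 ratio of 1.59), 3 of 4 for Rock2 (1.14, 1.25 and 1.75), 2 of 3 for Vcl (1.06 and 1.01), 1 of 6 for Tpm1 and the 1 for Palldl1. The log2 ratio with IL-1b and that with PDGF-DD, each over its own vehicle, were at least 1 apart for 3 of 40 genes, Synpo2 (-3.51 and -1.18), Csrp2 (-3.89 and -0.85) and Pxn (-0.54 and 0.52). For Synpo2 and Csrp2 the controls differed by -2.18 and -2.42 on the same scale, and the treated arrays by 1.11-fold and 1.54-fold. None of these 40 genes was at least 2-fold apart in opposite directions. For these counts between the factors, the shares over all genes were not taken.

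Because many of these genes are described as SRF targets, their promoters were searched in windows from 250 bases before to 50 after the start, on the RefSeq annotation of GRCr8. Windows were available for 40 of the 44 genes, 53 windows in all, since some genes have several starts; Actb, Actn4, Lasp1 and Parva had none. The CArG box was found in 5 of 53 windows, of 4 genes, and in 1.64% of all 33469 windows. The MCAT motif CATTCC of TEAD factors, read on both strands, was in 9 of 53 windows and in 14.2% of all. The CArG-bearing stretches are shown, as they hold the element itself, with the box in capitals and the remainder in lower case, 5′ to 3′ on the strand of the gene.
Actg1, chr10:106121007-106121066, minus strand, box 90 bases before the start: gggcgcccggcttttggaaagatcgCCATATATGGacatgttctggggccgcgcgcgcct
Cnn2, chr7:10370349-10370408, minus strand, box 71 bases before the start: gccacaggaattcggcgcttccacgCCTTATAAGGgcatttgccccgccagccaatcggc
Fhl1, chrX:139638369-139638428, plus strand, box 102 bases before the start: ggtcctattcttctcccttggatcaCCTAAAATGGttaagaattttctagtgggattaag
Fhl2, first start, chr9:52954601-52954660, minus strand, box 95 bases before the start: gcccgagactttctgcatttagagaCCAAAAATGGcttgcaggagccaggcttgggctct
Fhl2, second start, chr9:52923350-52923409, minus strand, box 58 bases before the start: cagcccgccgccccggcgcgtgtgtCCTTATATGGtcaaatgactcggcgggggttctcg

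The 4 genes with a box did not move as a group. Fhl1 had log2 ratios of -0.97 with IL-1b and -1.02 with PDGF-DD, Cnn2 -0.69 and -0.09, Actg1 -0.22 and -0.35, and Fhl2 0.32 and -0.40. None of the 5 genes lower with both factors had a CArG box in these windows, which says only that these letters are not there. Those 5 were picked for being lower with both factors, and of them Nexn, Myh10 and Palld had the MCAT motif. The other genes with the motif had these log2 ratios with IL-1b and PDGF-DD. Vcl had -1.31 and -0.65, Flna -1.03 and -0.91, and Tpm1 -0.84 and -0.84. Zyx had -0.78 and -0.63, Pfn1 -0.34 and -0.26, and Fhl2 0.32 and -0.40. The stretches of Nexn and Myh10 are shown next as examples, with the motif in capitals. A match is a description and not a bound site.
Nexn, chr2:243878221-243878280, minus strand, 101 bases before the start: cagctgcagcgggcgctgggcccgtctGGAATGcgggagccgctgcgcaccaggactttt
Myh10, chr10:53893119-53893178, plus strand, 118 bases before the start: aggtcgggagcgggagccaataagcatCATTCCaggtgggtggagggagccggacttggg
Srf itself had an intensity of 988 and 568 with the IL-1b control and IL-1b and of 922 and 579 with the PDGF-DD control and PDGF-DD, log2 ratios of -0.80 and -0.67. Myocd, its smooth muscle coactivator, was 5.74-fold lower with IL-1b and 1.75-fold lower with PDGF-DD, and 3.13-fold lower on the PDGF-DD control than on the IL-1b control. Mrtfa, the coactivator held by actin monomers, had log2 ratios of -0.46 and -1.16.

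Other genes of the same structures were read from lists of related genes. The shares of all genes to set beside each list are 5.42% lower and 6.15% higher with IL-1b. For PDGF-DD they are 4.67% lower and 4.24% higher. Of 30 further focal adhesion genes, 10 were at least 2-fold lower with IL-1b and 0 higher (median -0.53), and 6 were lower and 1 higher with PDGF-DD (median -0.24). Lims2, the relative of Lims1 in the integrin-linked complex, was 9.51-fold lower with IL-1b (2178 to 229) and 13.4-fold lower with PDGF-DD (1058 to 79.0). Sorbs2, an adaptor on stress fibres, was 5.59-fold and 4.14-fold lower, and Ldb3, a Z-disc PDZ-LIM protein, 6.75-fold and at least 3.81-fold lower. Parvb, the relative of Parva, was higher with PDGF-DD, at 320 against 74.9, a 4.27-fold difference, while Parva was lower; it had 39.8 with IL-1b and was under the floor with the IL-1b control.

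Among 51 further actin regulators 8 were at least 2-fold lower and 1 higher with IL-1b (median -0.15), and of 50 measured with PDGF-DD 5 were lower and 1 higher (median -0.14). Svil, supervillin, which ties myosin to membranes, was 3.74-fold lower with IL-1b and 2.84-fold with PDGF-DD. Ezr, ezrin, a membrane-actin linker named after its values were seen as the only gene of this list called higher with PDGF-DD, was 2.27-fold higher with PDGF-DD. Of 11 contractile genes of smooth muscle, 10 were at least 2-fold lower with IL-1b (median -2.15), and 10 of 10 measured with PDGF-DD (median -2.95), so their medians lay further below 0 than those of the cytoskeletal genes. The 7 reference genes had medians of 0.05 and -0.07, with 0 at least 2-fold apart. Their log2 ratios ran from -0.17 to 0.93 with IL-1b and from -0.28 to 0.41 with PDGF-DD. The highest was Hprt1, 1.90-fold higher with IL-1b (1824 to 3467).

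**Figure D5:**
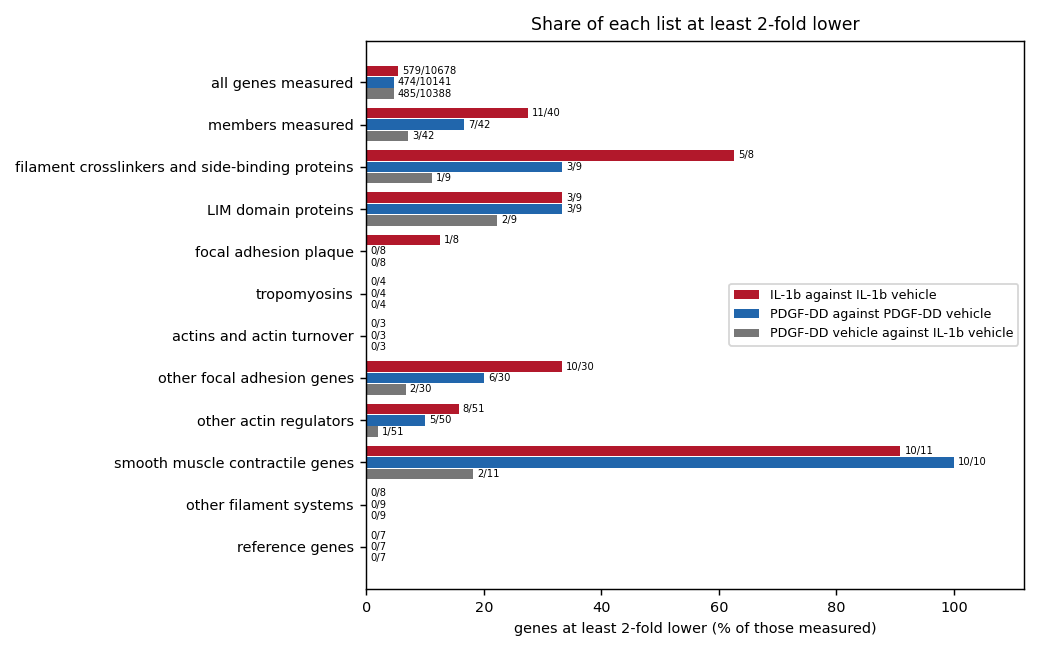
Share of the measured genes of each list that were at least 2-fold lower (horizontal axis, percent), for each factor over its own vehicle and for the PDGF-DD control over the IL-1b control; the labels give the count over the number measured. The set stood at 11 of 40 with IL-1b and 7 of 42 with PDGF-DD, beside 5.42% and 4.67% of all genes, and below the contractile genes at 10 of 11 and 10 of 10.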

How the data were processed

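RNA of 4 cultures was measured on 1 Affymetrix array each, with no replicates. The authors deposited probe set intensities on a linear scale; per the submitters' processing notes these are MAS5 values, and the sources used here give neither its version nor its scaling target. The deposited columns share a median intensity of 53.3. Each array was grouped by its title in the labels. Arrays were rescaled to a common mean after trimming 2% of probe sets at each end (factors 1.03, 1.01, 1.01 and 0.951), and floored at the 40th percentile (28.1). Of 31099 probe sets, 20832 had 1 symbol in a 2016 platform annotation, 436 had several and 9831 were not listed; 20764 matched GRCr8 RefSeq by gene identifier, among them 41 of the 42 genes described here (Myh9 kept its annotated name). Where 1 array was at the floor, a fold is a lower bound; where both were, none is given.

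The members and lists were chosen with earlier results of these data known. Any member may be named; of the other lists, up to 4 genes per list and comparison with the largest ratio, plus Acta2, Myh11, Tagln, Cnn1, Srf and Myocd. Ezr and Ddx60 were named after their values were seen. The bright-gene count was added after the data were seen. Alternatives changed the scaling, floor, probe set, fold and vehicle. The steps were tested on simulated data. Python 3.11.15, numpy 2.4.6 and pandas 2.3.3 were used.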

Additional observations from a re-analysis of the deposited data

How the results depend on the processing

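No paired analysis was possible because each group was 1 array. The medians of the measured genes moved by at most 0.2 under each setting tried, and no gene at least 2-fold apart changed direction. With every probe set counted, 27 were lower with IL-1b, 15 lower with PDGF-DD and 10 higher on the PDGF-DD control. With 1.5-fold called, these counts were 23, 20 and 4. The last was out of 42 measured, while 1298 of all 10388 genes passed 1.5-fold in that direction between the controls. With the IL-1b control as baseline, 15 genes were lower and 2 higher with PDGF-DD; with the PDGF-DD control as baseline, 6 of the 11 genes lower with IL-1b remained at 2-fold. By the median of probe sets, 1 gene was lower on the PDGF-DD control, and with the floor at the 60th percentile, 1 was higher there. The cause was not tested, except that a lower fold and more probe sets raise a count by construction. With values as deposited and with quantile normalization, Fhl1 was under 2-fold with PDGF-DD (-0.93 and -0.79). Signal near the floor limits Ppp1r12b and, in the IL-1b pair, Palldl1.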

Other observations

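Listed genes of filament systems other than actin showed another pattern, and vimentin, which is not among them, did not share it. Its log2 ratio between the controls was -0.08. Of 9 measured genes for tubulins, lamins, nestin and synemin, 4 had at least 2-fold more signal in the PDGF-DD control than in the IL-1b control (median log2 ratio 0.85), where 5.8% of all genes were higher, while 0 were 2-fold apart with IL-1b or PDGF-DD against their own vehicles (medians -0.01 and 0.34). Tubb6, a beta-tubulin, had 404 and 507 with the IL-1b control and IL-1b and 1848 and 2791 with the PDGF-DD control and PDGF-DD. Lmnb1, lamin B1 of the nuclear envelope, had 174, 216, 813 and 1050 in that order. Diaph3, a formin that elongates actin filaments, was higher on that control too (619 against 208) and was 2.40-fold lower with IL-1b than with its control.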
